A study of Mus musculus with 12 samples.

Results

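The thyroids of 5 affected B6NTac mice, out of 12 thyroids sequenced in the series, were examined for how the stress response varied from mouse to mouse. The 5 were chosen by the ending TCW of their column names in the deposited gene table. The study traced thyroid dysplasia in C57BL/6NTac (B6NTac) mice from Taconic to a LINE-1 retrotransposon in an intron of *Tg*, which encodes thyroglobulin. The other 7 thyroids served here only as a reference range: 6 came from unaffected C57BL/6NCrl (B6NCrl) mice of Charles River and 1 from an unaffected knockout mouse of Taconic, whose knocked out gene is not named. The labels give no LINE-1 genotype, sex, age or treatment for any mouse, so the number of copies of the insertion in each mouse is not known here. Each thyroid gave 1 library from total RNA depleted of ribosomal RNA. The mice are named by the last digit of their labels as mice 1, 3, 4, 5 and 6. Each value is that of 1 animal, and differences between animals, dissections and library preparations cannot be told apart.

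Thyroglobulin is the large protein on which thyroid hormone is made, and it is folded in the endoplasmic reticulum (ER) of the follicular cell before it is secreted into the follicle. When unfolded proteins gather in the ER, a set of sensors switches on the unfolded protein response. ATF6 and IRE1, the latter through XBP1, raise chaperones such as BiP (*Hspa5*) and the machinery that returns misfolded proteins to the cytosol for degradation. PERK (*Eif2ak3*) lowers translation in general while raising the transcription factor ATF4, which in turn raises genes of amino acid supply and the factor CHOP (*Ddit3*), known for its role in cell death under lasting stress.

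The promoters of several of these genes hold short motifs that the factors of the response are known to bind, and 9 of them are shown because they belong to genes described below. An ER stress response element was searched for as CCAAT and CCACG separated by 9 bases, and a C/EBP-ATF response element as TGATGNAA, both on either strand, in RefSeq promoters of GRCm38.p6 that run from 250 bases before to 50 bases after the start of a gene. The patterns do not contain each other. The ER stress response element was found at 0.137% of 27025 genes and at 33.3% of the 21 ER chaperones and folding enzymes with a promoter in the table (7 genes: *Calr*, *Canx*, *Creld2*, *Dnajc3*, *Hsp90b1*, *Hspa5* and *Pdia6*). Of 15 genes of ER-associated degradation with a promoter there, 2 held it, *Derl3* and *Syvn1*. The C/EBP-ATF pattern was found at 4.51% of all genes and at 71.4% of the 7 aminoacyl-tRNA synthetases with a promoter there (5 genes). It was found at 36.4% of 11 signalling and feedback targets of ATF4, 33.3% of 6 amino acid transporters and 30.8% of 13 amino acid synthesis genes. These matches are descriptions of the sequence and not of binding.

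The windows with the ER stress response element lie at chr2:34772010-34772058 (plus strand), chr10:86705518-86705671 (minus strand), chr15:88819505-88819553 (plus strand) and chr19:6046517-6046565 (plus strand), and capitals mark the outer parts of the element on whichever strand it was found.
Hspa5: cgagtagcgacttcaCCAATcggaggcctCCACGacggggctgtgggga
Hsp90b1: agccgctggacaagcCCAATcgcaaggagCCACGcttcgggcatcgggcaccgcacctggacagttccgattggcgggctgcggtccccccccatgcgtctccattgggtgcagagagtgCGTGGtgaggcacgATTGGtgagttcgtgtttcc
Creld2: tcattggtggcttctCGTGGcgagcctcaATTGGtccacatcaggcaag
Syvn1: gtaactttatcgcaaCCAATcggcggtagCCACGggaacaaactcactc

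The windows with the C/EBP-ATF pattern, in capitals, lie at chr8:94386302-94386339 (plus strand), chr1:191183421-191183458 (minus strand), chr6:7693210-7693247 (minus strand), chr2:119351034-119351071 (plus strand) and chr3:50443638-50443694 (minus strand).
Herpud1: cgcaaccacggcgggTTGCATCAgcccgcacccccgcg
Atf3: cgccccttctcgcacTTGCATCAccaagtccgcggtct
Asns: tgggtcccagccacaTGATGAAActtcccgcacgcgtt
Chac1: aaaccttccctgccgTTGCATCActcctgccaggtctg
Slc7a11: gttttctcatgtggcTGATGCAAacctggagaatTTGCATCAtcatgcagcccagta

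The 5 affected libraries held between 20170500 and 23319948 counts and between 27689 and 28840 genes with a count. Levels are given as CPM (counts divided by the scaled size of the library) after TMM scaling, which sets the bulk of genes equal between libraries. Of 55536 genes, 17413 passed a filter that asks for about 10 counts in each of the 5 thyroids. A gene was called variable when its highest thyroid was at least 2-fold above its lowest and the difference passed a test for counting error only (edgeR, Poisson likelihood, Benjamini-Hochberg over all 17413 genes at 0.05). By this rule 4319 genes, or 24.8%, were variable; the test covers counting error alone, since no mouse has a second library. Over all genes the median ratio of the highest to the lowest thyroid was 1.54. The first principal component held 46.3% of the variance in log2 CPM and had mice 6 and 4 at its ends, and the second held 31.0% and had mouse 1 at its end.

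*Tg* and the other thyroid genes showed a pair of low thyroids, mice 1 and 6. The share of all counts that fell on *Tg* (chromosome 15, 66670753 to 66850721, plus strand, GRCm38) was 11.04% in mouse 1, 18.95% in mouse 3, 24.3% in mouse 4, 19.7% in mouse 5 and 10.7% in mouse 6, or 16.9% ± 5.91 (SD, n = 5). In the 6 B6NCrl thyroids it was between 21.6% and 29.6%, and in the knockout 23.9%. The shares of mice 1 and 6 thus lay at about the same low level and mouse 4 alone reached the reference range. Counting error was small beside this spread, with a 95% Wilson interval for counting error of 10.69% to 10.72% at the lowest and 24.29% to 24.33% at the highest share. The low shares of mice 1 and 6 went with a higher share of mitochondrial transcripts, 7.16% and 6.86% against 2.95% to 4.08% in the other 3 thyroids, and the part of one in the other was not tested.

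Of 21 genes of thyroid function, 20 passed the filter (*Kcne2* did not) and 17 were variable, against 24.8% of all genes. *Cdh16*, a cadherin of the follicular cell, stood at 19.4, 63.8, 61.9, 55.2 and 29.3 CPM in mice 1, 3, 4, 5 and 6. *Pax8*, a transcription factor of the thyroid lineage, stood at 176, 246, 413, 305 and 189 CPM. Both were lowest in mice 1 and 6. Mice 1 and 6 were the 2 lowest thyroids for 19 of the 20 genes, against 21.0% of all genes tested. The exception was *Ano1*, a chloride channel, which was lowest in mouse 3. *Duoxa2*, which brings the enzyme that makes hydrogen peroxide to the cell surface, spanned 3.10-fold with its lowest level in mouse 6. As a list score, the mean over the 20 genes of log2 CPM relative to the mean of the 5 thyroids, the list stood at -0.65, 0.33, 0.44, 0.34 and -0.46 in mice 1, 3, 4, 5 and 6. In bulk tissue, fewer follicular cells and less RNA of these genes per cell cannot be told apart.

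The levels were therefore also given relative to the thyroid genes, by scaling each library so that the mean log2 level of these 20 genes was equal. This thyroid-relative scale removes what the list shares and moves all other genes by the same amount in the opposite direction. On it, *Tg* spanned 0.35 log2 units, from a thyroid-relative level of 145329 CPM in mouse 3 to 185327 CPM in mouse 4, where it had spanned 1.32 on the TMM scale. On the same scale 76.6% of all genes spanned at least 2-fold and 68.8% were highest in mouse 1, so that a narrow range there is the exception.

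ER chaperones and folding enzymes followed the thyroid genes. All 26 passed the filter, and 13 were variable, against 24.8% of all genes. *Hspa5* (chromosome 2, 34771970 to 34777547, plus strand), the main chaperone of the ER, stood at 1101 CPM in mouse 1, 2319.8 in mouse 3, 1727 in mouse 4, 2157 in mouse 5 and 963 in mouse 6, or 1653 ± 609 (SD, n = 5). *Hsp90b1*, the ER form of HSP90, stood at 1602, 3279.6, 3527, 3153 and 1547 CPM in the same order of mice. The 3 thyroids of mice 3, 4 and 5 were high and those of mice 1 and 6 low for each gene. The lowest of the 5 was still above the reference range, which was 145 to 341 CPM for *Hspa5* and 322 to 571 for *Hsp90b1*.

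The widest span of the list was that of *Creld2*, a secreted ER stress protein, at 95.5, 237, 159.6, 213 and 77.5 CPM in mice 1, 3, 4, 5 and 6, a ratio of 3.05. *Sdf2l1*, a partner of BiP, spanned 2.63-fold between 54.0 CPM in mouse 6 and 142 CPM in mouse 5. *Pdia4*, a disulfide isomerase, spanned 2.38-fold between 450.5 CPM in mouse 6 and 1071 CPM in mouse 3. The genes with the smallest SD spanned 1.19-fold for *Dnajc10*, a reductase of the ER, and 1.38-fold for *Fkbp14*, a prolyl isomerase, neither of which was above the reference range in any thyroid. Mice 1 and 6 were the 2 lowest for 24 of the 26 genes, against 21.0% of all genes, and no gene of the list was highest in either of them.

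How far the chaperones spread relative to thyroid genes depended on the genes that set the scale. The list score went from a range of 0.83 log2 units on the TMM scale (-0.45, 0.33, 0.30, 0.33 and -0.50 in mice 1, 3, 4, 5 and 6) to a range of 0.34 (0.20, 0.00, -0.14, -0.01 and -0.04) relative to the 20 thyroid function genes. With 4 factors of the thyroid lineage (*Pax8*, *Nkx2-1*, *Foxe1* and *Hhex*) set equal instead, a scale added after seeing the data, the list ranged over 0.69 and *Hspa5* over 1.09 log2 units, against 1.27 for *Hspa5* on the TMM scale. Of the 26 genes, 1 spanned at least 2-fold on the thyroid-relative scale, against 76.6% of all genes. That gene was *Txndc11*, a thioredoxin-like protein known to bind the enzymes that make hydrogen peroxide in the thyroid. *Calr*, the lectin chaperone calreticulin, spanned 2.24-fold on the TMM scale and 1.15-fold on the thyroid-relative scale. *Hspa5* spanned 1.46-fold on the latter, at 1728, 1849, 1269, 1705 and 1325 CPM in mice 1, 3, 4, 5 and 6, with mouse 4 at the low end.

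**Figure D1:**
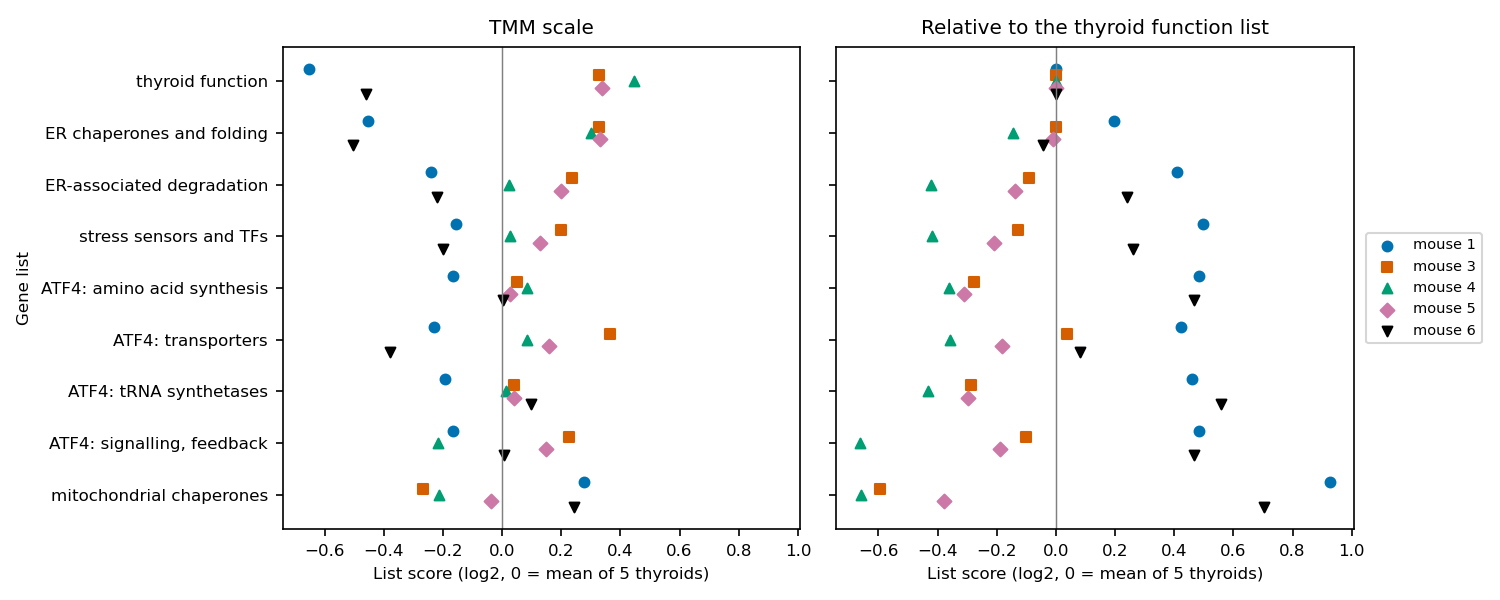
Scores of 9 gene lists in each affected thyroid (log2 units, 0 is the mean of the 5 thyroids), on the TMM scale (left) and relative to the thyroid function list (right), with 1 symbol per mouse. The ER chaperones span 0.83 on the left and 0.34 on the right, while the mitochondrial chaperones lie the other way round, highest in mice 1 and 6.

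Genes of ER-associated degradation fell into those that went with the chaperones and those that did not. All 20 passed, and 5 were variable (*Herpud1*, *Syvn1*, *Derl3*, *Edem1* and *Sel1l*), a share near the 24.8% of all genes. *Derl3*, a channel component of the retrotranslocation complex, stood at 98.8, 207, 182, 181 and 87.4 CPM in mice 1, 3, 4, 5 and 6. *Sel1l*, the adaptor of the same complex, stood at 358, 664, 561, 616 and 327 CPM, with mice 1 and 6 low. *Herpud1*, which is rapidly induced by ER stress, stood at 170.2, 416, 122, 367 and 113 CPM. *Syvn1*, the ubiquitin ligase HRD1, stood at 56.9, 137, 51.8, 119 and 38.6 CPM. For these last 2 genes mouse 4 joined mouse 6 at the low end and mice 3 and 5 stood apart at the top. *Edem1*, which marks misfolded glycoproteins, spanned 2.19-fold with mouse 4 between the pairs, at 104 CPM against 151 and 154 in mice 5 and 3. *Ube2j1* and *Aup1*, which act in the same ubiquitin pathway, spanned 1.14-fold and 1.06-fold. The list score spanned 0.48 log2 units on the TMM scale and 0.83 on the thyroid-relative scale, where 8 of the 20 genes spanned at least 2-fold, against 76.6% of all genes.

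Among the sensors and transcription factors, the genes of the sensors PERK, IRE1 and ATF6 were not variable, and the widest span was that of *Atf3*. All 19 genes of the list passed and 5 were variable (*Atf3*, *Ddit3*, *Cebpb*, *Nupr1* and *Creb3l1*), a share near the 24.8% of all genes. *Ddit3* (chromosome 10, 127290774 to 127296288, plus strand) stood at 37.9 CPM in mouse 1, 67.0 in mouse 3, 26.9 in mouse 4, 49.4 in mouse 5 and 15.7 in mouse 6, or a ratio of 4.25 between the highest and the lowest. The 5 values did not overlap the reference range of 5.49 to 7.38 CPM. *Atf3*, a factor induced by ATF4, stood at 10.8, 39.3, 16.9, 33.8 and 6.86 CPM, a ratio of 5.66. It too was highest in mice 3 and 5. *Xbp1*, *Atf4* and *Eif2ak3* spanned 1.35-fold, 1.56-fold and 1.71-fold. Those 3 genes were named after their values were seen, as were the other genes that fall outside the rule in the processing notes. The deposited table marks 52 of the 113 stress genes that passed as overlapping another annotated gene, *Ddit3*, *Herpud1*, *Syvn1* and *Atf3* among them, and their counts may hold reads of that other gene. *Eif2ak4* and *Eif2ak1*, sensors of amino acid and haem supply that share the target of PERK, spanned 1.20-fold and 1.30-fold. *Nupr1*, a stress protein of chromatin, was lowest in mouse 1 at 64.2 CPM and highest in mouse 4 at 145 CPM, against a median of 14.99 CPM and a range of 12.6 to 235 CPM in the B6NCrl thyroids. *Cebpb*, the partner of ATF4 and CHOP, ran the other way, at 43.6, 19.5, 13.6, 21.3 and 43.4 CPM in mice 1, 3, 4, 5 and 6, with mice 1 and 6 high.

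**Figure D2:**
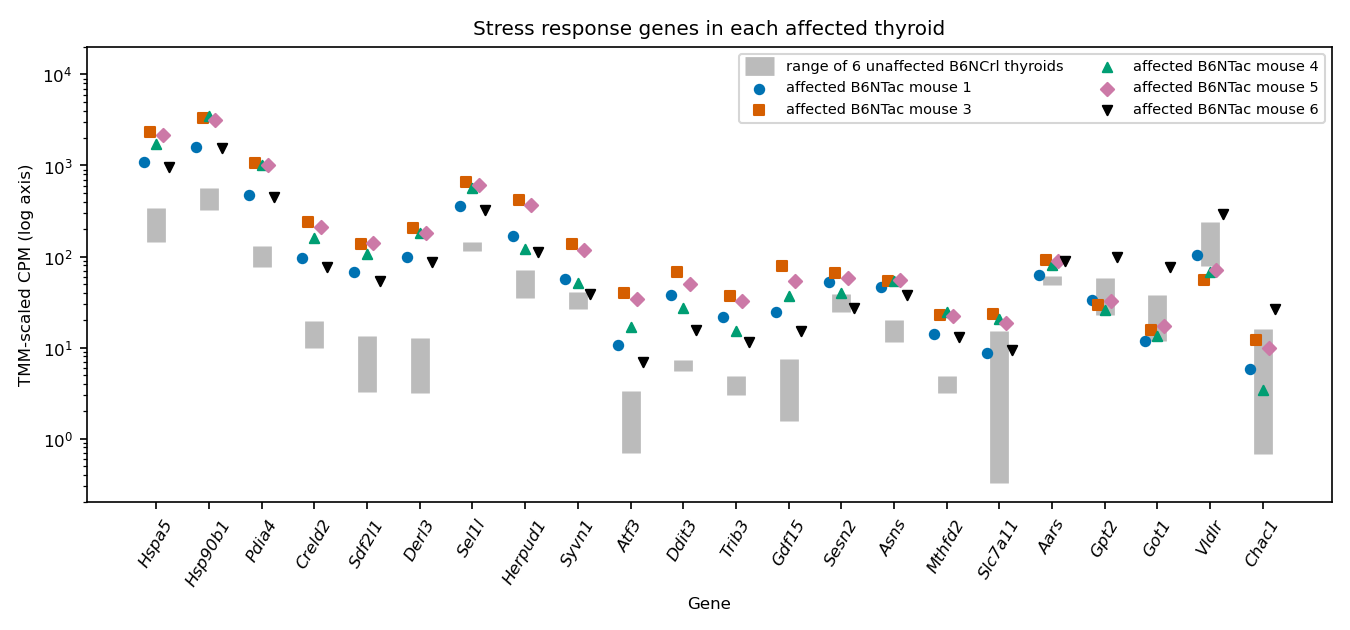
Level of 22 stress response genes in each of the 5 affected thyroids (symbols, TMM-scaled CPM on a log axis) with the range of the 6 unaffected B6NCrl thyroids (grey bars). *Hspa5* runs from 963 to 2319.8 CPM with mice 1 and 6 lowest, *Ddit3* from 15.7 to 67.0 CPM with mice 4 and 6 lowest, and *Got1*, *Gpt2*, *Vldlr* and *Chac1* are highest in mouse 6.

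The order of the mice for *Ddit3* (3, 5, 1, 4, 6 from high to low) was shared by *Trib3*, *Herpud1*, *Syvn1*, *Sesn2* and *Txndc11*. With *Ddit3* itself, which sets the order, these are 6 of the 113 stress genes that passed, against 1.59% of all genes tested. The order for *Hspa5* (3, 5, 4, 1, 6) was held by 14 of the 113, *Hspa5* itself included, against 2.26% of all genes. The difference between the orders is the place of mouse 4. Mouse 4 had the highest thyroid score and high chaperones, and yet *Ddit3* there was lower than in mouse 1, which had the lowest thyroid score. Mice 4 and 6 were the 2 lowest for 12 of the 113 stress genes, against 11.0% of all genes, so that this pair as such was no more frequent among stress genes than elsewhere. On the thyroid-relative scale mice 4 and 6 were the 2 lowest for 23 of the 113, against 1.90% of all genes. That share is low by construction, because the scale raises mouse 6 by 0.46 log2 units for every gene. The pair was also lowest for 4 of the 20 thyroid function genes on that scale, so it was not particular to stress genes. There *Ddit3* stood at 59.6, 53.4, 19.8, 39.1 and 21.6 CPM in mice 1, 3, 4, 5 and 6, and *Trib3* at 33.7, 29.0, 11.2, 25.7 and 15.7. Of the 23 genes, 10 were ER chaperones and folding enzymes, whose narrow span on that scale is given above. Mice 4 and 6 also differed from the others in *Xist*, the RNA of the inactive X chromosome, at 19.1 and 11.4 CPM against 1542 to 1925 CPM. Y-linked genes summed to 187 and 197 CPM in mice 4 and 6 against 0.477 to 0.790 CPM in the others. By these RNAs mice 4 and 6 were male and mice 1, 3 and 5 female, and the part of sex in the order of *Ddit3* was not tested.

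**Figure D3:**
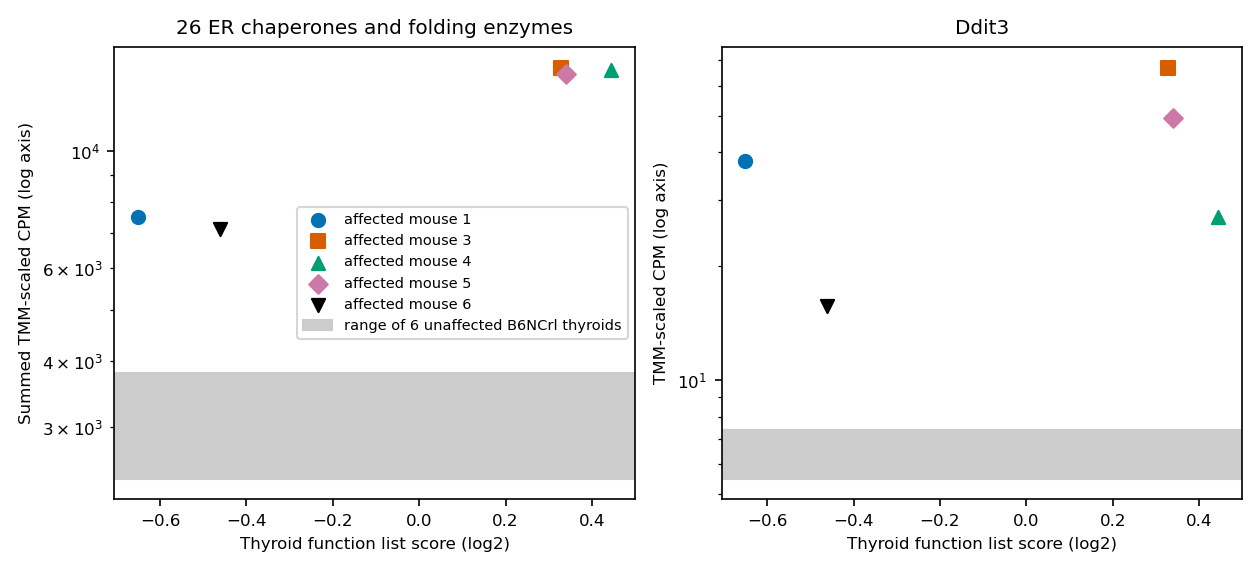
Summed level of the 26 ER chaperones (left) and level of *Ddit3* (right), in TMM-scaled CPM on log axes, against the score of the thyroid function list (log2) in the 5 affected thyroids, with the range of the 6 unaffected B6NCrl thyroids shaded. The chaperone sums of mice 3, 4 and 5 lie between 13977 and 14368 CPM at high thyroid scores, while *Ddit3* in mouse 4 (26.9 CPM) lies below mouse 1 (37.9 CPM).

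Targets of ATF4 in amino acid supply differed in how far they varied. Of 15 genes of amino acid synthesis and one-carbon metabolism, 14 passed (*Cth* did not) and 4 were variable (*Got1*, *Gpt2*, *Aldh1l2* and *Cbs*), a share near the 24.8% of all genes. *Asns* (chromosome 6, 7675169 to 7693254, minus strand), asparagine synthetase, stood at 45.9, 53.6, 54.0, 55.8 and 38.2 CPM in mice 1, 3, 4, 5 and 6, a ratio of 1.46, with each thyroid above the reference range of 11.6 to 19.97 CPM. Without mouse 6 its log2 range was 0.26 rather than 0.54. *Aldh1l2*, of mitochondrial folate metabolism, stood at 18.2, 28.3, 57.1, 34.9 and 23.2 CPM and was highest in mouse 4. *Mthfd2*, of the same pathway, spanned 1.89-fold and was likewise highest in mouse 4. *Phgdh*, the first enzyme of serine synthesis, and *Pck2*, of mitochondrial phosphoenolpyruvate synthesis, spanned 1.29-fold and 1.25-fold. The list score ranged over 0.25 log2 units on the TMM scale, the smallest range of the 7 stress lists, and over 0.08 without mouse 1. On the thyroid-relative scale it ranged over 0.84.

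Aminoacyl-tRNA synthetases, which load amino acids onto tRNA, had 12 of 12 genes passing and 0 variable, against 24.8% of all genes, and at 1.5-fold rather than 2-fold *Iars* alone passed that size, at 1.55-fold. *Aars* stood at 61.9, 91.9, 81.3, 89.5 and 88.7 CPM in mice 1, 3, 4, 5 and 6, above a reference range of 48.3 to 61.5 CPM. *Sars* spanned 1.48-fold, *Wars* 1.33-fold, *Yars* 1.18-fold and *Gars* 1.17-fold. Mouse 1 was the lowest for 9 of the 12 genes, against 22.9% of all genes, and the range of the list score fell from 0.29 to 0.08 log2 units without it. On the thyroid-relative scale the range was 0.99 and 8 of the 12 genes spanned at least 2-fold, against 76.6% of all genes.

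Of 9 amino acid transporters, all passed and 4 were variable, against 24.8% of all genes. *Slc7a11*, the cystine importer, stood at 8.65, 23.3, 20.7, 18.4 and 9.45 CPM in mice 1, 3, 4, 5 and 6. *Slc7a3*, an importer of basic amino acids, stood at 9.53, 17.8, 19.96, 16.6 and 7.82 CPM, against at most 0.738 CPM in the B6NCrl thyroids. Both were low in mice 1 and 6, as was *Slc7a1* of the same family, at 44.997 and 39.3 CPM against 65.0 to 81.3 in the others. *Slc6a9* and *Slc7a5*, carriers of glycine and of large neutral amino acids, each spanned 1.81-fold and were not called. *Slc1a5*, the glutamine carrier, spanned 1.77-fold and was highest in mouse 1, at 218 CPM against 123 to 144 in the others.

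The signalling and feedback targets of ATF4 split between the mice. Of 14 genes, 13 passed (*Fgf21* did not) and 9 were variable, against 24.8% of all genes. *Gdf15*, a circulating stress hormone, stood at 24.8, 78.8, 36.4, 54.1 and 15.02 CPM in mice 1, 3, 4, 5 and 6. *Trib3*, a pseudokinase that feeds back on ATF4, stood at 21.5, 36.5, 15.2, 32.5 and 11.4 CPM. Both were highest in mice 3 and 5 and lowest in mouse 6. *Ppp1r15a*, the phosphatase subunit that ends the block on translation, and *Fam129a*, a regulator of the same step, spanned 1.65-fold and 1.47-fold and were highest in mouse 4.

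A few genes of these lists stood highest in mouse 6, the thyroid with the lowest *Hspa5*. They were 18 of the 113 stress genes, against 24.4% of all genes. *Chac1*, a glutathione-degrading enzyme, stood at 5.79, 12.1, 3.42, 9.92 and 26.3 CPM in mice 1, 3, 4, 5 and 6. *Vldlr*, a lipoprotein receptor, stood at 103, 54.6, 67.4, 71.2 and 294 CPM. *Got1* and *Gpt2*, aminotransferases of aspartate and alanine, stood at 76.1 and 98.8 CPM in mouse 6 against at most 17.3 and 33.7 in the other 4. The highest of the other 4 thyroids was below mouse 6 by more than 2-fold for each of the 4 genes. Mouse 6 was also the thyroid with most skeletal muscle RNA, at 117796 CPM summed over the 14 muscle genes against 122 to 4887 in the other 4. In the B6NCrl thyroid with most muscle RNA, at 46574 CPM, *Got1*, *Gpt2*, *Vldlr* and *Chac1* stood at 38.1, 57.8, 242 and 16.0 CPM. In the B6NCrl thyroid with least, at 36.4 CPM, they stood at 11.9, 22.8, 78.1 and 0.673 CPM. The part of muscle in the affected thyroids was not tested.

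**Figure D4:**
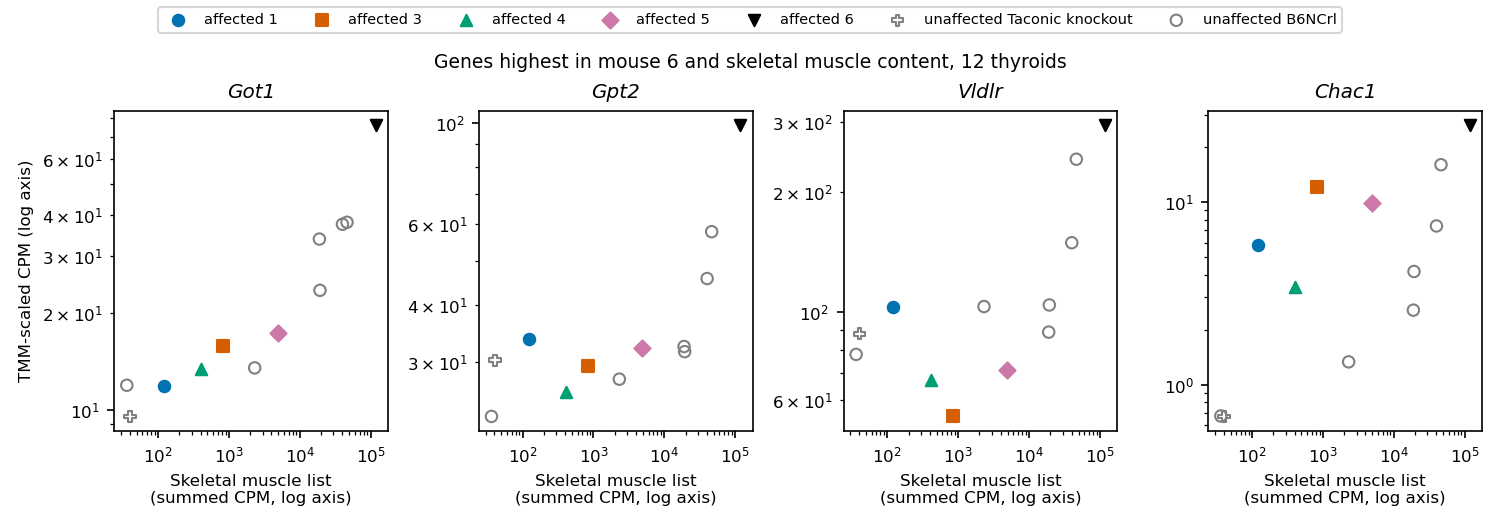
Level of *Got1*, *Gpt2*, *Vldlr* and *Chac1* (TMM-scaled CPM, log axes) against the summed level of 14 skeletal muscle genes (CPM, log axis) in all 12 thyroids, with filled symbols for the affected mice, circles for B6NCrl and a cross for the Taconic knockout. Mouse 6, at 117796 CPM of muscle genes, is at the top of each plot, and the B6NCrl thyroid with most muscle RNA, at 46574 CPM, comes next in each.

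Across the 7 stress lists, which hold 115 genes, 40 of the 113 that passed were variable, against 24.8% of all genes, and the median ratio was 1.78, against 1.54 over all genes. Mouse 3 was highest for 37 of them, against 17.4% of all genes. Mouse 1 was lowest for 50, against 22.9% of all genes, and mouse 6 for 46, against 24.8%. Mice 1 and 6 were the 2 lowest for 68 of the 113, against 21.0% of all genes. On the thyroid-relative scale, mouse 1 was highest for 66 of the 113, against 68.8% of all genes, which is no more than the background. Without mouse 6, 24 stress genes were variable rather than 40. That mouse was the highest for 24.4% and the lowest for 24.8% of all genes, so leaving it out narrows the span of many other genes too. Of the 10 genes of the ER stress apoptosis list, which shares *Ddit3*, *Trib3* and *Ero1l* with the lists above, 5 were variable, against 24.8% of all genes. Of that list, *Bax*, *Bak1* and *Bcl2l11*, which act at the mitochondrion, varied less, at 9.39 to 14.1, 9.71 to 11.3 and 34.1 to 45.4 CPM. They are not all the genes of the list that act there.

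The content of other tissues differed widely between the affected thyroids, and the sums of skeletal, slow and cardiac muscle, parathyroid, airway, cartilage, B cell, T cell and brown fat markers spanned more than the 7.52-fold of *Chac1*, the widest span of a stress gene. Of 17 lists of markers of other tissues and cells, 14 had a summed level that spanned at least 2-fold. Skeletal muscle ranged from 122 CPM in mouse 1 to 117796 in mouse 6, where 10.4% of all counts fell on the list and 6.38% on *Ttn* alone. *Myh1* and *Ckm*, a fast myosin and the muscle creatine kinase, ran from 1.27 and 0.527 CPM in mouse 1 to 7084 and 2037 CPM in mouse 6. The reference range of the muscle list was itself 36.4 to 46574 CPM. The 15 genes with the largest SD were taken among genes that passed the filter, with a mean of at least 10 CPM. They were 12 muscle genes (*Myh1*, *Ckm*, *Acta1*, *Xirp2*, *Tnnt3*, *Mybpc1*, *Atp2a1*, *Ryr1*, *Tnnc2*, *Myh4*, *Nrap* and *Mylpf*), the imprinted RNA *H19*, which was highest in mouse 6 as well, and *Pth* and *Kl*. Genes that failed the filter were not ranked.

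Parathyroid RNA was nearly absent from mouse 4. *Pth*, parathyroid hormone, stood at 3104, 3035, 0.715, 1744 and 4012 CPM in mice 1, 3, 4, 5 and 6, and *Chga*, chromogranin A of its granules, at 3928, 4228, 16.7, 2461 and 5223 CPM. The B6NCrl thyroids held 1639 to 2891 CPM of *Pth*. *Gcm2*, the factor that defines the gland, was at 0 counts in mouse 4. *Kl*, the co-receptor Klotho, ran with them, at 0.613 CPM in mouse 4 and 178 to 409 CPM in the others. Of 7 markers of C cells, the calcitonin cells of the thyroid, that passed, 5 were highest in the same mouse 4, against 25.1% of all genes, and 2 in mouse 3. In mouse 4 *Scg2* stood at 354 CPM against 111 to 179.8 and *Chgb* at 28.7 CPM against 8.69 to 14.4 in the others.

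Mice 1 and 3 each stood out in other tissues. Mouse 1 had most brown fat, with *Ucp1*, the uncoupling protein, at 695 CPM against 9.44 to 261 in the others and *Dio2* at 109 CPM against 1.79 to 54.5. It also had most white fat (*Lpl* at 1328 CPM against 174 to 829.6), most *Ighm* of B cells (93.6 CPM against 3.89 to 8.44), most *Cdh19* of Schwann cells (43.6 CPM against at most 12.3) and, of endothelium, most *Vwf* and *Cldn5* (117 and 16.8 CPM against at most 50.6 and 10.8). Mouse 3 had cartilage and airway RNA, with *Chad* and *Col11a1* at 85.04 and 40.006 CPM against at most 3.83 and 6.33 in the others, and *Bpifa1* and *Muc5b* at 1362 and 174 CPM against at most 96.0 and 18.8. In the B6NCrl thyroids *Bpifa1* reached at most 19.2 CPM and the cartilage list at most 17.4 CPM, while *Muc5b* alone reached 35132 CPM in 1 of them. The T cell gene *Lck* stood at 8.34 and 12.5 CPM in mice 1 and 3 and at 1.29 to 1.68 CPM in mice 4, 5 and 6. Haemoglobin *Hba-a1* and *Hba-a2*, of red cells, were highest in mouse 1 at 221 and 521 CPM and lowest in mouse 5 at 39.7 and 93.7 CPM. *Plin4* of fat cells was highest in mouse 6. The part of any of these contents in the levels of stress genes was not tested.

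**Figure D5:**
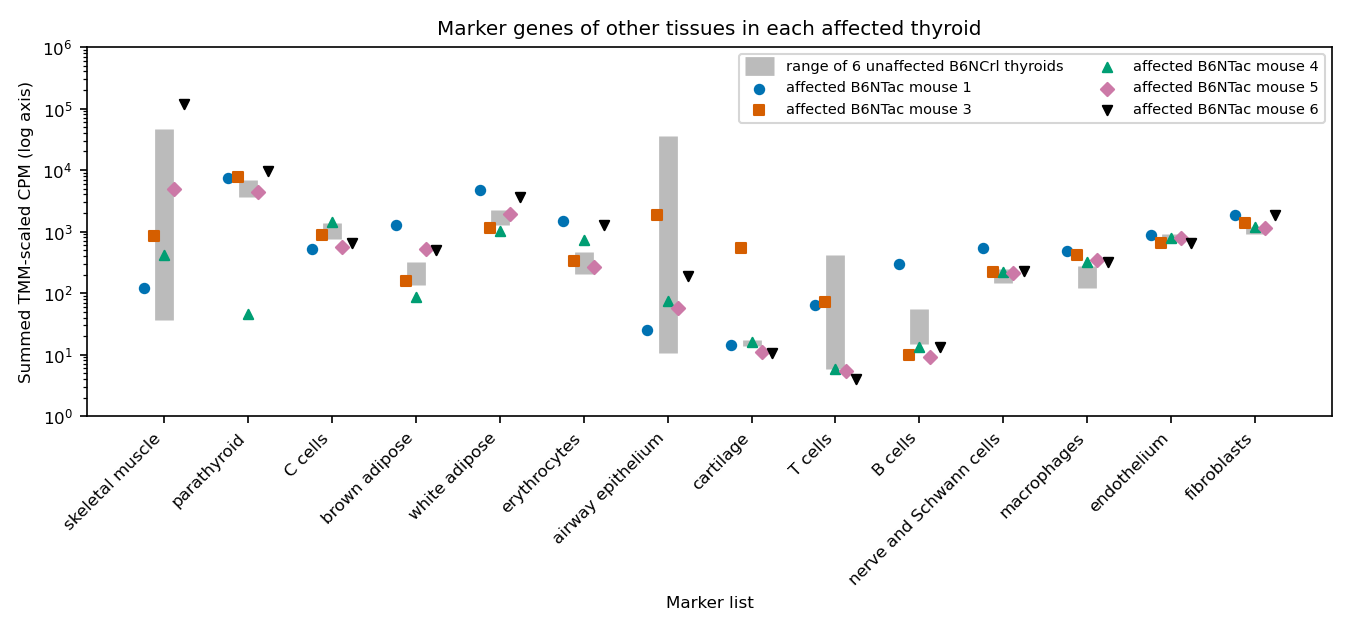
Summed level of the markers of 14 tissues or cell types (TMM-scaled CPM, log axis) in each affected thyroid (symbols), with the range of the 6 unaffected B6NCrl thyroids (grey bars). Skeletal muscle spans 122 to 117796 CPM, parathyroid falls to 45.9 CPM in mouse 4, cartilage reaches 547 CPM in mouse 3 and B cells 292 CPM in mouse 1, while macrophages, endothelium and fibroblasts span less than 2-fold.

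Macrophage, endothelial and fibroblast markers varied less on the TMM scale, and spanned 1.51-fold, 1.38-fold and 1.63-fold in their sums. The sums of C cell and thyroid function genes, also of cells found in every thyroid, spanned 2.72-fold and 2.12-fold. On the thyroid-relative scale all 17 lists of other tissues and cells spanned at least 2-fold in their sums. Single genes of fibroblasts varied more, with 6 of 10 variable, against 24.8% of all genes. Mice 1 and 6 were the 2 highest for 9 of these 10, against 19.2% of all genes. Of 11 macrophage and 10 endothelial genes, 2 each were variable, shares near the 24.8% of all genes. Among macrophage genes *Cd14* was highest in mouse 3, at 10.2 CPM against 3.59 to 4.39 in the others, and *Lyz2* stood at 183 and 206 CPM in mice 1 and 3 against 112 to 114. *Postn* and *Dpt*, matrix proteins of fibroblasts, were highest in mice 1 and 6, *Postn* at 165 and 133 CPM and *Dpt* at 60.5 and 91.9 CPM. *Trp63*, of squamous epithelium, spanned 12.8 to 36.4 CPM, and *Cd1d1*, in the list of thymocytes, 6.02 to 21.6 CPM. No gene of the list for slow and cardiac muscle passed the filter.

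Mitochondrial chaperones did not follow those of the ER, and cytosolic heat shock genes did so in part. Of 8 mitochondrial chaperones and proteases, 7 had mice 1 and 6 as the 2 highest thyroids, against 19.2% of all genes. Of the 8, 0 were variable, against 24.8% of all genes, and 5 were past 1.5-fold. The median ratio of the list was 1.54, the same as the 1.54 over all genes. *Hspe1*, the small chaperonin, stood at 31.8, 17.8, 18.0, 21.8 and 27.2 CPM in mice 1, 3, 4, 5 and 6. *Dnaja3*, a mitochondrial cochaperone, stood at 82.0, 45.7, 43.1, 56.6 and 82.9 CPM. Mice 1 and 6, lowest for the ER chaperones, were thus highest here, and this went with the shares of mitochondrial transcripts given above. Of 11 cytosolic heat shock genes, 4 were variable, against 24.8% of all genes. Mice 1 and 6 were the 2 lowest for 5 of the 11, against 21.0% of all genes. *Hspa1b*, an inducible HSP70, spanned 2.51-fold with mice 1 and 6 lowest at 27.3 and 28.9 CPM, while *Hspb1*, a small heat shock protein, was highest in mouse 6 at 104 CPM against 26.1 to 34.2 in the others.

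Immediate early genes set mouse 4 apart. Of 12 such genes, 11 were variable, against 24.8% of all genes, and 11 were highest in mouse 4, against 25.1% of all genes. *Fos* stood at 6.37, 17.3, 248, 19.9 and 65.9 CPM in mice 1, 3, 4, 5 and 6, and *Fosb* at 8.25, 19.9, 184, 21.0 and 19.1 CPM. The summed level of the list was 1527 CPM in mouse 4 against 345 to 635 in the others and 227 to 340 in the B6NCrl thyroids (339.5 at most). The exception was *Nr4a1*, which was highest in mouse 1.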

How the data were processed

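RNA of 12 mouse thyroids was sequenced after depletion of ribosomal RNA (KAPA RNA HyperPrep with RiboErase, Illumina NextSeq), and the authors aligned the reads with the OmicSoft aligner to the mouse genome with Ensembl genes. The deposited table holds estimated counts and FPKM per gene, made by the authors; whether strand was used in counting is not given in the sources used here. The estimated counts were rounded and analysed in R 4.3.3 with edgeR 4.0.16 (filterByExpr with a minimum count of 10 over the 5 affected libraries, TMM scaling, log2 CPM with a prior count of 2). Genes were tested between mice by a Poisson likelihood ratio (dispersion 0) with Benjamini-Hochberg adjustment at 0.05 and a fold of 2. The Poisson step was tested on simulated data. Unaffected libraries were placed on the same scale as a reference range. A list score is the mean over genes that passed. The thyroid-relative scale sets the mean log2 level of 20 thyroid function genes equal. Named genes were *Tg*, *Hspa5*, *Ddit3* and *Asns*. Each stress list gave the 4 with the largest and the 2 with the smallest SD of log2 CPM among those with a mean of at least 5 CPM. Each other list gave 2. The last were the 15 with the largest SD among genes that passed the filter, with a mean of at least 10 CPM. Members and lists were chosen with earlier results of these data known. *Vimp* was matched as *Selenos*. Alternatives were other scalings (DESeq2 1.42.0 size factors, library totals with and without *Tg*, upper quartile, 4 lineage factors), filters, folds, prior counts, the deposited FPKM and leaving out each mouse; the lineage factors and the filter of 10 counts in any thyroid were added after seeing the data. Promoters came from RefSeq (GRCm38.p6) and were searched in Python 3.11.15; figures were drawn with matplotlib 3.10.9. With 5 mice no correlation was computed. Some items are not reported here.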

Additional observations from a re-analysis of the deposited data

Results flagged for a closer look

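In 17 of 139 values tested, the highest or lowest of the 5 affected thyroids lay apart from the other 4 by more than Dixon's criterion at 95%. Chance passes it in about 1 of 20 groups, but most of these genes were named for their large SD over the same 5 thyroids, so the count cannot be set against that rate. In mouse 6, *Got1* stood at 76.1 CPM, *Gpt2* at 98.8, *Gapdh* at 680.4 and *Hspb1* at 104 CPM, beside the most skeletal muscle RNA of the 5. In mouse 1, *Slc1a5* stood at 218 CPM, *Ighm* at 93.6, *Vwf* at 117 and *Cdh19* at 43.6 CPM, and the list scores of B cells and of nerve and Schwann cells were 2.59 and 1.21 log2 units above the mean of the 5. In mouse 3, *Cd14* stood at 10.2 CPM, *Chad* at 85.04 CPM and the cartilage score at 2.45. In mouse 4, *Pth* stood at 0.715 CPM, *Kl* at 0.613 and *Chga* at 16.7 CPM, and the parathyroid score at -6.06. *Got1*, *Gpt2* and *Slc1a5* were the only stress genes among the 17. The part of tissue content in these values was not tested.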

How the results depend on the processing

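The pair of low thyroids and the wide span of *Ddit3* were read on the TMM scale, and scaling was the choice that moved most values. DESeq2 size factors, upper-quartile factors and a prior count of 0.5 moved none of the values that answer a comparison. With library totals, the ranges of the sensors and synthetases were 0.62 and 0.17, 83 stress genes were lowest in mouse 6 and 25 had the order of *Hspa5*. With totals that leave out *Tg*, the range of *Asns* was 0.87, of degradation 0.82, of sensors 0.76, of synthesis 0.42 and of transporters 1.11, with 86 genes lowest in mouse 6 and 22 in the order of *Hspa5*; these totals shifted the median gene of mouse 6 by -0.27. On the thyroid-relative scale the log2 ranges were 0.35 for *Tg*, 0.54 for *Hspa5*, 0.86 for *Asns*, 0.34 for chaperones, 0.83 for degradation, 0.91 for sensors, 0.84 for synthesis, 0.99 for synthetases and 1.15 for signalling, with 10 stress genes highest in the thyroid of *Hspa5*, 1 in its order, and 13020 variable genes. With 4 lineage factors equal they were 0.31 for *Tg*, 1.09 for *Hspa5*, 0.69 for chaperones (nearer to 1.27 and 0.83 on the TMM scale than to the thyroid-relative values), 0.97 for *Asns*, 0.94 for degradation, 1.03 for sensors, 1.03 for synthesis, 1.19 for synthetases, 1.33 for signalling and 0.55 for thyroid function, and 101 stress genes were lowest in the thyroid of *Hspa5*. By log2(FPKM + 1) the sensors ranged over 0.57, and by log2(FPKM + 0.1) over 0.62 and degradation over 0.73; by both, 59 stress genes were highest and 83 lowest as *Hspa5* and 23 shared its order. The share of *Tg* spanned 3.81 percentage points of FPKM and 13.6 of counts, which as ratios are 2.52-fold and 2.27-fold. Variable genes numbered 7765 with no filter, 7010 with 10 counts in any thyroid, 8011 at 1.5-fold (77 stress genes), 1000 at 4-fold (6) and 1736 without genes marked as overlapping (26), the last with fewer genes tested. Leaving out each mouse in turn gave ranges of 0.081 to 0.25 for synthesis, 0.085 to 0.30 for synthetases and 0.26 to 0.55 for *Asns*, 45 to 84 stress genes lowest as *Hspa5*, 24 to 29 in its order and 24 to 38 variable. Where no construction is named, the cause was not tested. No paired analysis was possible because the affected thyroids form 1 group. With 1 library per mouse, counting error is the only error that could be tested.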

Other observations

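The list for thyroid hormone response also holds the hormone receptors *Thra* and *Thrb*, so its count is not one of hormone targets alone. Mice 1 and 6 were the 2 highest for 5 of its 6 genes that passed, against 19.2% of all genes. *Thrsp*, a lipogenic target of the hormone, stood at 75.9, 20.5, 16.6, 35.8 and 77.9 CPM in mice 1, 3, 4, 5 and 6, and *Hr*, a nuclear corepressor, at 28.1, 25.0, 16.6, 22.1 and 45.8 CPM. White fat markers, whose cells also express *Thrsp*, were highest in the same pair, at 4650 and 3631 CPM in sum.

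The interferon response was highest in mouse 3 as a list score (0.36) and lowest in mouse 6 (-0.38), with *Oasl2* at 19.7 and 9.39 CPM there and 4 of 10 genes variable, against 24.8% of all genes. Proliferation and circadian scores each spanned 0.18 log2 units, although *Top2a* spanned 2.24-fold and *Tef* 2.29-fold.

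The length of *Tg* implied by its counts and FPKM (the count over the FPKM and the library total) was 7654.9 to 7841.2 bases in the 5 affected thyroids and 8408.8 to 8414.3 in the 6 B6NCrl thyroids, with the lowest value in mouse 4, which had the highest share of *Tg*.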
